A study of Homo sapiens with 8 samples.

Results

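The genes described here encode the proteins of the 2 ribosomes of a human cell, the one in the cytosol and the one in the mitochondrion. They were picked by the form of their symbols. Symbols of the form RPL or RPS with a number, with A or X after it in a few cases, together with RPLP0, RPLP1, RPLP2 and RPSA, gave 76 cytosolic genes, 30 with RPS and 46 with RPL symbols, named after the small and the large subunit. Symbols of the form MRPL or MRPS with a number gave 78 mitochondrial gene identifiers, 30 with MRPS and 48 with MRPL symbols, although a few MRPS symbols name large subunit proteins. These 154 of 16608 genes with counts in all 8 libraries were all kept by the filter on low counts. MRPL30 and MRPS17 each appear under 2 identifiers, so the 78 identifiers stand for 76 symbols, and the reads of such overlapping identifiers cannot be told apart with certainty.

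The cells were SupB15, an established human line of Philadelphia chromosome-positive precursor B-cell leukemia, grown in IMDM with serum. The 4 groups of 2 libraries each were 2 µM 1035 for 36 h followed by 10 h with 0.1 µM doxorubicin (1035+Doxo), 46 h with 2 µM 1035 (1035), 10 h with 0.1 µM doxorubicin (Doxo), and 46 h with the solvent DMSO. The series title names 1035 as an inhibitor of histone deacetylases, enzymes that remove acetyl groups from histones and other proteins, and doxorubicin, an anthracycline, holds topoisomerase II on broken DNA. The treatments differed in length, so drug and time cannot be told apart in comparisons with the Doxo group, and the labels do not say whether 1035 stayed on the cells after doxorubicin was added. Each library held 11760542 to 18144670 counted reads of total RNA depleted of ribosomal RNA. All 10 listed markers of precursor B cells had counts, with summed levels, in counts scaled per library size with TMM factors (CPM), of 2462 to 2474 in 1035+Doxo, 2480 to 2502 in 1035, 3346 to 3531 in Doxo and 3432 to 3572 in DMSO. Among markers of other cells, CD3D, CD3E, CD3G, CD2, CD14, FCN1, S100A8 and the erythroid genes had no count in the genes kept. The 1 T and NK cell marker with counts had 11.17 and 9.998 CPM in 1035+Doxo and 9.64 and 11.78 in 1035. It had 11.31 and 10.99 CPM in Doxo and 11.73 and 10.32 in DMSO, so libraries with and without 1035 overlapped. The 2 myeloid markers with counts, LYZ and CSF1R, summed to 20.4 and 20.8 CPM in 1035+Doxo and 18.3 and 19.8 in 1035, against 14.5 and 16.5 in Doxo and 14.6 and 15.8 in DMSO. The 1 stromal marker with counts, COL1A1, had 1.14 and 2.89 CPM in 1035+Doxo and 1.80 and 2.68 in 1035, against 0.392 and 0.485 in Doxo and 0.127 and 0.331 in DMSO. Precursor B markers were thus lower, and these low myeloid and stromal markers higher, in all 4 libraries with 1035. The part of such markers in the results below was not tested.

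Cytosolic ribosomes translate the mRNAs of the nucleus. Their protein genes are among the most active in a growing cell, and most of their mRNAs begin with a C and a run of pyrimidines, the 5′ terminal oligopyrimidine (TOP) motif, through which mTOR signalling and LARP1 set their translation. Mitochondrial ribosomes translate the few mRNAs of the mitochondrial genome, all of which encode subunits of the respiratory chain and ATP synthase. Their proteins are encoded in the nucleus, made in the cytosol and imported, and regulators such as NRF1, the ETS factor GABP and YY1 are known to bind promoters of genes for mitochondrial proteins. Some cytosolic proteins, RPL5 and RPL11 first, also bind MDM2, the ubiquitin ligase of p53, when ribosome assembly is disturbed.

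The families differ in the letters at their start sites, which are shown first. RefSeq promoters (GRCh38.p14, 250 bases before and 50 from the start on) were matched by symbol for 129 of the 152 symbols, 62 cytosolic and 67 mitochondrial. A C at the annotated start followed by at least 4 pyrimidines was present at 1 or more starts of 46 of the 62 cytosolic genes (74.2%), of 6 of the 67 mitochondrial genes (8.96%), of 7.61% of the 9498 tested genes in the table and of 5.14% of all 27305 genes in it. The following 30 bases around the start, 15 on each side, belong to cytosolic genes whose values are given below, with the pyrimidine run from the start in capitals.
RPLP0: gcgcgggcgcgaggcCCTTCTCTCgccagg
RPL10: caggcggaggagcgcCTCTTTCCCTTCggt
RPS12: gcgtgcggatgaggcCTCTTTCCCTgccgc
RPL38: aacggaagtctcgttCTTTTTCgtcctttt
RPL11: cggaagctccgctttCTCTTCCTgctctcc
RPS6: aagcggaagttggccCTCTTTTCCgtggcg
They lie at chr12:120201097-120201126 (minus strand), chrX:154398362-154398391 (plus), chr6:132814554-132814583 (plus), chr17:74203663-74203692 (plus), chr1:23691791-23691820 (plus) and chr9:19380222-19380251 (minus), in the order printed. The run was 12 bases in RPL10 and 7 in RPL38, so that both a gene that fell and a gene that rose with 1035 carry it. Of the 15 matched cytosolic genes lower in 1035 than in DMSO, 14 had the motif, as did all 4 matched genes that were higher and 32 of the 47 that were not lower.

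Mitochondrial promoters shared other letters. The core CCGGAAG, which ETS factors such as GABP bind, was searched on both strands and stood in 29 of 67 mitochondrial (43.3%) and 22 of 62 cytosolic genes (35.5%), against 22.6% of the tested genes and 12.2% of all genes in the table. AAGATGGCG, a form of the YY1 site, stood in 19.4% of mitochondrial and 8.06% of cytosolic genes, against 4.82% of the tested and 2.14% of all genes. GCATGCGC, a core of the NRF1 site, was found in 8.96% and 4.84% of the mitochondrial and cytosolic genes, and in 6.51% of the tested genes. Windows of 30 bases are shown for mitochondrial genes with large changes below, with CCGGAAG or its reverse complement CTTCCGG in capitals. MRPL12, MRPL11 and MRPL42, which also fell, were searched too, and no such window was found for them. The genes shown were thus picked for having the motif.
MRPL54: gccactgacgtCTTCCGGaaacgtgcactt
MRPL48: aatttcagaagCTTCCGGaactaaaatgat
MRPL27: ccacgcagggcCCGGAAGtagatctcctga
MRPS26: tccccgcgccgCTTCCGGggcacggtggcg
MRPS16: cggatcatccgCTTCCGGagtcgaggtttt
MRPL3: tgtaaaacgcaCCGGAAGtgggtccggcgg
They lie at chr19:3762650-3762679 (plus strand), chr11:73787800-73787829 (plus), chr17:50373218-50373247 (minus), chr20:3046004-3046033 (plus), chr10:73252621-73252650 (minus) and chr3:131502985-131503014 (minus). Both motifs were about as frequent among genes that fell as among the others. CCGGAAG was present in 41.7% of the 36 matched mitochondrial genes lower in 1035 and in 45.2% of the 31 others, and AAGATGGCG in 19.4% of each.

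With 1035, many mRNAs for proteins of the mitochondrial ribosome were lower, whereas most of those for the cytosolic ribosome passed no test. In 1035 against DMSO, 41 of 78 mitochondrial genes were lower and 4 higher by edgeR's quasi-likelihood test at a false discovery rate (FDR) of 0.05, adjusted over all genes by Benjamini-Hochberg. Over all 16320 genes tested, 24.8% were called lower and 24.2% higher, so the mitochondrial share of 52.6% lower stood above that background and the share of 5.13% higher below it. Of the cytosolic genes, 20 of 76 (26.3%) were lower and 5 (6.58%) higher, so the share lower was near that of all genes. The median log2 fold change was -0.21 over the mitochondrial genes and -0.06 over the cytosolic genes, beside 0.01 over all genes tested. When libraries were scaled by their totals alone, 32 mitochondrial genes were lower and 5 higher with a median of -0.15, while the cytosolic split turned to 7 lower and 12 higher with a median of 0.01. All genes moved too under that scaling, to 19.8% lower and 28.7% higher with a median of 0.08. Most cytosolic calls were lost without the first DMSO or the second 1035 library, whereas most mitochondrial genes called lower kept their call. Fewer genes were called over all genes too in each of these fits. Over the 8 omissions of 1 library, the median ranged from -0.099 to -0.045 for cytosolic genes. For mitochondrial genes it ranged from -0.24 to -0.19. In bulk RNA, fewer cells of a type and less RNA per cell cannot be told apart.

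**Figure D1:**
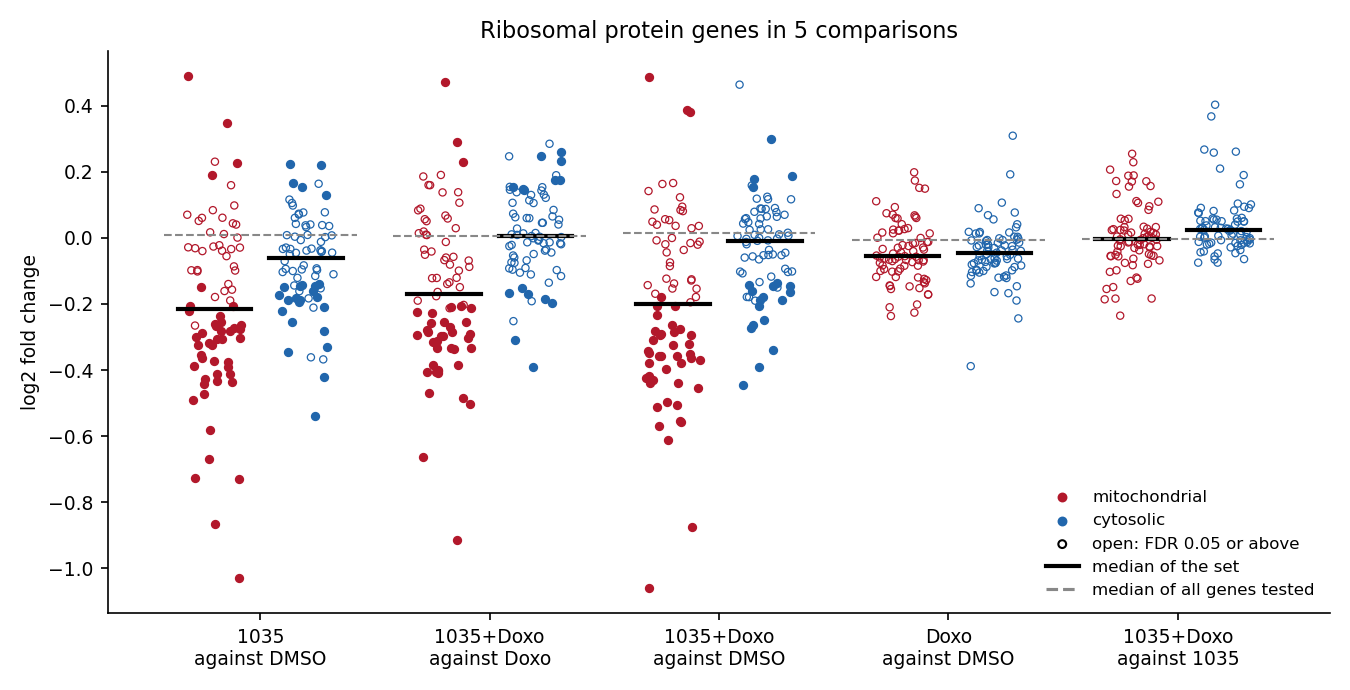
Log2 fold changes of each mitochondrial (red) and cytosolic (blue) ribosomal protein gene in 5 comparisons, each named on the horizontal axis; filled points passed an FDR of 0.05, black bars are set medians and dashed lines the median of all genes tested. The mitochondrial medians were -0.21, -0.17 and -0.20 in the 3 comparisons of a group given 1035 with a group not given it. They were -0.06 in Doxo against DMSO and 0.00 in 1035+Doxo against 1035. Doxo and DMSO also differed in treatment length.

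The same direction was seen for the mitochondrial genes in the share of counted reads, which uses no TMM factor. Mitochondrial ribosomal protein genes took 0.355% and 0.352% of counted reads in 1035+Doxo and 0.351% and 0.354% in 1035, against 0.388% and 0.380% in Doxo and 0.388% and 0.391% in DMSO. All 4 libraries given 1035 lay below all 4 without it. Cytosolic genes took 3.91% and 3.81% in 1035+Doxo and 3.86% and 3.75% in 1035, against 3.68% and 3.69% in Doxo and 3.70% and 3.71% in DMSO, here with the 1035 libraries above the others. There were 10.9 ± 0.134 cytosolic reads per mitochondrial read in 1035+Doxo and 10.8 ± 0.265 in 1035, against 9.61 ± 0.164 in Doxo and 9.52 ± 0.0443 in DMSO (SD, n = 2 each).

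**Figure D2:**
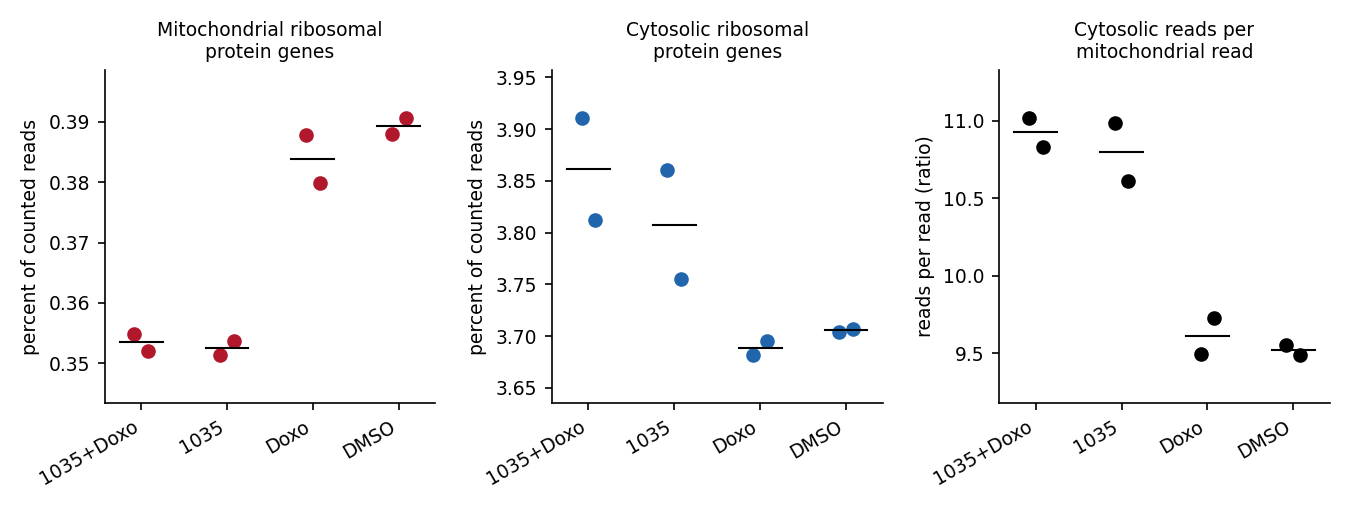
Share of counted reads on mitochondrial (left) and cytosolic (middle) ribosomal protein genes and their ratio (right) in each library; points are libraries, lines are means of 2, and the vertical axes do not start at 0. The ratio was 10.6 to 11.02 in the 4 libraries given 1035 and 9.49 to 9.72 in the 4 others.

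Taken gene by gene, 40 of 78 mitochondrial genes (51.3%) had all 4 libraries with 1035 below all 4 without, as had 24.7% of all genes tested and 15 of 76 cytosolic genes (19.7%). In the other direction, 6 mitochondrial (7.69%) and 9 cytosolic genes (11.8%) had all 1035 libraries above the rest, beside 24.5% of all genes. Expression level moved with the response. With all genes in 10 equal bins by mean CPM, the share lower in 1035 against DMSO was 3.12% in the lowest bin and 46.6% in the highest, which held 62 of the 76 cytosolic genes. Genes outside both families within the CPM range of the mitochondrial set had a median log2 fold change of -0.03, with 32% lower and 25.8% higher. Those within the range of the cytosolic set, a wide one of 6.03 to 1889 CPM, had a median of -0.04, with 33% lower and 25.6% higher. The highest bin, nearer to the level of most cytosolic genes, had a median of -0.12, with 46.6% lower and 19.4% higher. The cytosolic share of 26.3% lower was below both shares. The part of expression level in the result was not otherwise tested.

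Genes with MRPL symbols, named after the large subunit with its peptidyl transferase centre, had 26 of 48 lower and 3 higher in 1035 against DMSO, with a median log2 fold change of -0.21. The largest fall of any member in that comparison was that of MRPL54, which had 12.01 and 10.99 CPM in 1035+Doxo and 11.5 and 12.03 in 1035, against 22.9 and 20.2 in Doxo and 23.5 and 24.5 in DMSO. No 1035 library came near the others, and MRPL54 fell by 1.03 on the log2 scale in 1035 against DMSO (SE 0.11, edgeR adjusted p = 3.3e-10). MRPL48 had 29.6 and 25.9 CPM in 1035+Doxo and 24.3 and 22.2 in 1035, against 37.7 and 34.6 in Doxo and 41.9 and 42.9 in DMSO. The log2 fold change of MRPL48 was -0.86 (SE 0.09, edgeR adjusted p = 2.1e-10) in 1035 against DMSO and -0.38 (SE 0.09) in 1035+Doxo against Doxo. MRPL27 had 23.9 and 23.6 CPM in 1035+Doxo and 20.2 and 21.9 in 1035, against 33.7 and 32.6 in Doxo and 34.9 in both DMSO libraries, a log2 fold change of -0.73 (SE 0.09) in 1035 against DMSO.

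Other large subunit genes follow, some of them with known roles outside the bare structure or with mutations in disease. MRPL12, which is also reported to bind the mitochondrial RNA polymerase, had 22.2 and 23.2 CPM in 1035+Doxo and 20.7 and 17.9 in 1035, against 31.5 and 28.4 in Doxo and 30.1 and 31.5 in DMSO. The 1035 groups did not overlap the others, and the log2 fold change of MRPL12 in 1035 against DMSO was -0.67 (SE 0.10, edgeR adjusted p = 3e-07). MRPL15 fell by 0.58, MRPL42 by 0.44, MRPL11 by 0.43 and MRPL37 by 0.29 on the log2 scale (SE 0.06 to 0.08). MRPL3, mutated in a mitochondrial disease of the heart, had 98.6 and 92.8 CPM in 1035+Doxo, against 136 and 116 in Doxo, and its log2 fold change was -0.40 (SE 0.07) there and -0.38 (SE 0.07) in 1035 against DMSO. MRPL44, mutated in an infantile cardiomyopathy, fell by 0.21 (SE 0.08, edgeR adjusted p = 0.0379), a call that was lost in 8 of 17 alternative fits, including DESeq2 with an adjusted p of 0.138. MRPL46, the lowest member of the mitochondrial set at 2.83 ± 0.317 FPKM in DMSO (SD, n = 2), fell by 0.31 (SE 0.11), and that call was lost in 5 alternatives. MRPL41, which is known to bind BCL2 and p53, had 12.3 and 13.2 CPM in 1035+Doxo and 12.6 and 15.4 in 1035, against 12.7 and 13.7 in Doxo and 12.7 and 12.2 in DMSO, and passed no test.

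Genes with MRPS symbols, named after the small subunit that decodes the mRNA, had 15 of 30 lower and 1 higher, with a median log2 fold change of -0.22 in 1035 against DMSO. MRPS26 had 36.6 and 34.9 CPM in 1035+Doxo and 38.6 and 40.7 in 1035, against 58.9 and 54.2 in Doxo and 68.5 and 62.6 in DMSO. The 4 libraries with 1035 lay well below the 4 others, and the log2 fold change of MRPS26 was -0.73 (SE 0.08, edgeR adjusted p = 5.4e-10). MRPS16, mutated in a combined respiratory chain deficiency, had 87.3 and 86.8 CPM in 1035+Doxo and 89.7 and 87.4 in 1035, against 117 and 114 in Doxo and 122 and 124 in DMSO, and fell by 0.47 on the log2 scale (SE 0.06) in 1035 against DMSO. MRPS12, the homolog of the bacterial protein at the decoding centre, fell by 0.39 (SE 0.09), and MRPS34, the highest member of the mitochondrial set at 72.8 ± 1.87 FPKM in DMSO (SD, n = 2), fell by 0.32 (SE 0.07).

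The 3 paralogs MRPS18A, MRPS18B and MRPS18C, of which 1 sits in the large subunit and the others in the small, were each lower in 1035 than in DMSO, with log2 fold changes of -0.27 (SE 0.10), -0.26 (SE 0.07) and -0.28 (SE 0.09). MRPS18B held its call in all 17 alternative fits. The calls of MRPS18A and MRPS18C were lost in 5 and 4 of them, and MRPS18C had 37.8 and 40.3 CPM in 1035+Doxo, against 41.3 and 35.9 in Doxo, a log2 difference of 0.01 (SE 0.09). MRPS22 and MRPS30 passed no test in 1035 against DMSO, with log2 fold changes of -0.16 (SE 0.08) and 0.02 (SE 0.06). MRPS27, a pentatricopeptide repeat protein that binds mitochondrial rRNA, fell by 0.15 (SE 0.06, edgeR adjusted p = 0.0378), and 8 of 17 alternatives ended that call.

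A few mitochondrial genes ran the other way. MRPL10 had 44.8 and 41.1 CPM in 1035+Doxo and 42.2 and 43.8 in 1035, against 34.8 and 35.6 in Doxo and 31.5 and 29.8 in DMSO. It was above the others in all 4 libraries with 1035, and its log2 fold change in 1035 against DMSO was 0.49 (SE 0.09, edgeR adjusted p = 6.9e-06), called in every alternative. MRPS6 rose by 0.35 (SE 0.08), MRPL52 by 0.23 (SE 0.07) and MRPL1 by 0.19 (SE 0.07) in the same comparison. MRPS6 lost its call without the first 1035 library (edgeR adjusted p = 0.094), MRPL52 in 2 and MRPL1 in 5 alternatives. MRPL55 had 42.2 and 35.8 CPM in 1035+Doxo, against 29.3 and 26.8 in Doxo, a log2 rise of 0.47 (SE 0.10, edgeR adjusted p = 0.00016). It had 31.2 and 39.01 CPM in 1035 against 29.6 and 30.03 CPM in DMSO, and missed the threshold (edgeR adjusted p = 0.0507).

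**Figure D3:**
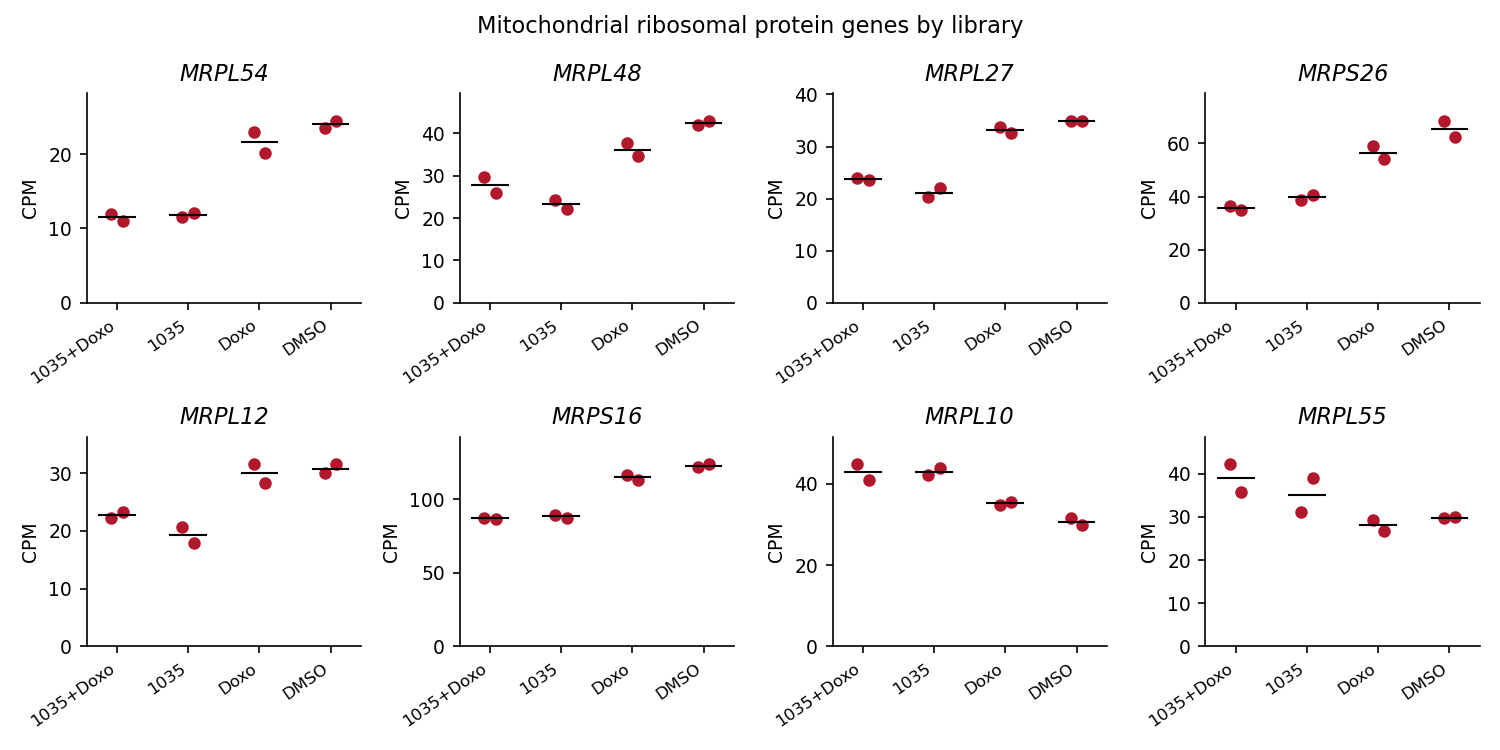
CPM (vertical axes, from 0) of 8 mitochondrial ribosomal protein genes in the 2 libraries of each treatment; points are libraries and lines means. The first 6 genes were lower in all 4 libraries with 1035, whereas MRPL10 and MRPL55 were higher in them. MRPL54 lay between 10.99 and 12.03 CPM with 1035 and between 20.2 and 24.5 CPM without.

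Cytosolic genes differed by subunit in how many were called in 1035 against DMSO, although this difference was not tested. There, 12 of 30 small subunit genes (40%) were lower and 1 higher, with a median log2 fold change of -0.13. Of 46 large subunit genes, 8 (17.4%) were lower and 4 higher, with a median of -0.04. In 1035+Doxo against Doxo, which shares no library with it, the shares lower were near each other, at 10% of small and 8.7% of large subunit genes. The medians there were -0.01 and 0.01. In 1035+Doxo against DMSO, 33.3% of small and 13% of large subunit genes were lower. The sizes were small. No cytosolic gene that passed the test changed by more than 0.54 on the log2 scale. In 1035 against DMSO, scaling by library totals alone, which left 7 cytosolic genes lower and 12 higher, was the alternative under which the split turned. Only RPL10, RPL21, RPLP0 and RPS12 were called lower in that comparison, and RPL11 and RPL38 higher, in every alternative run. In 1035+Doxo against Doxo, only RPL10 was called lower, and RPL34 and RPL38 higher, in every run.

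RPL10, a late-joining large subunit protein that is mutated in T-cell acute lymphoblastic leukemia, showed the clearest fall. It had 202 and 201 CPM in 1035+Doxo and 192 and 203 in 1035, against 264 and 265 in Doxo and again 264 and 265 in DMSO. The 4 libraries with 1035 lay below the 4 others, and the log2 fold change of RPL10 was -0.42 (SE 0.06, edgeR adjusted p = 6.6e-08) in 1035 against DMSO and -0.39 (SE 0.06) in 1035+Doxo against Doxo. RPL21 had 21.96 and 21.4 CPM in 1035+Doxo and 18.4 and 22.4 in 1035, against 28.8 and 24.5 in Doxo and 28.3 and 30.8 in DMSO. Its log2 fold change was -0.54 (SE 0.10) in 1035 against DMSO. Many processed pseudogenes copy cytosolic ribosomal protein mRNAs, so with reads of 50 bases and a counter that is not given, the levels of RPL10, RPL21 and the other members are uncertain where copies took reads.

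Proteins of the stalk, which recruits the translation factors that hydrolyse GTP, did not move together. RPLP0, the base of the stalk, had 813 and 811 CPM in 1035+Doxo and 794 and 822 in 1035, against 965 and 882 in Doxo and 973 and 954 in DMSO, and fell by 0.25 on the log2 scale (SE 0.06, edgeR adjusted p = 0.00027) in 1035 against DMSO. RPLP1 had 197 and 210.3 CPM in 1035+Doxo and 179 and 159 in 1035, against 211 and 213 in Doxo and 211 and 183 in DMSO. It was called lower in 1035 against DMSO by 0.22 (SE 0.07), but not without the first DMSO library (edgeR adjusted p = 0.305) or the second 1035 library (edgeR adjusted p = 0.151). RPLP2, the partner of RPLP1, had log2 fold changes of 0.00 (SE 0.06) in 1035 against DMSO and 0.05 (SE 0.06) in 1035+Doxo against Doxo.

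Genes that encode the MDM2-binding proteins were at high levels in every library. RPL11 had 1291 and 1273 CPM in 1035+Doxo and 1349 and 1294 in 1035, against 1113 and 1159 in Doxo and 1117 and 1149 in DMSO. It rose by 0.22 on the log2 scale (SE 0.06, edgeR adjusted p = 0.00101) in 1035 against DMSO, with no overlap between libraries with and without 1035. RPL5, which joins RPL11 and 5S rRNA in the particle that binds MDM2, had 724 and 685 CPM in 1035+Doxo and 718 and 673 in 1035, against 709.9 and 671 in Doxo and 734 and 727 in DMSO, and passed no test. RPL23 and RPL26 likewise passed none, with log2 fold changes of -0.09 and 0.04 (SE 0.06 each) in 1035 against DMSO. MDM2 itself had 2020 and 1917 CPM in 1035+Doxo and 1722 and 1658 in 1035, against 2514 and 2337 in Doxo and 2080 and 2085 in DMSO. It fell by 0.30 on the log2 scale in 1035 against DMSO (SE 0.06, edgeR adjusted p = 3.1e-05) and rose by 0.22 in Doxo against DMSO (SE 0.06, edgeR adjusted p = 0.0389), a call that ended in 5 of 17 alternatives, among them those without either DMSO library (edgeR adjusted p = 0.486 and 0.302) or the first Doxo library (edgeR adjusted p = 0.0989).

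Diamond-Blackfan anemia is an inherited failure of red cell production. Of 4 genes listed here for their mutation in it, 3 passed no test in 1035 against DMSO, as did 8327 of all 16320 genes. RPS19 had a log2 fold change of 0.07, RPL35A of -0.03 (SE 0.06 each) and RPS26 of -0.04 (SE 0.13). RPS24 was called higher by 0.15 (SE 0.06, edgeR adjusted p = 0.0262), but not without the first DMSO library (edgeR adjusted p = 0.279) or the first 1035 library (edgeR adjusted p = 0.175). RPS6, the substrate of S6 kinases, had 1838 and 1756 CPM in 1035+Doxo and 1888 and 1823 in 1035, against 1933 and 1894 in Doxo and 1953 and 2025 in DMSO. The 4 libraries with 1035 were the 4 lowest, yet its log2 fold change of -0.10 (SE 0.06) in 1035 against DMSO did not pass the test.

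Among the other cytosolic members, RPS12, a small subunit protein, had 401 and 407 CPM in 1035+Doxo and 410.5 and 365 in 1035, against 472 and 435 in Doxo and 492 and 483 in DMSO, and fell by 0.33 on the log2 scale (SE 0.06) in 1035 against DMSO. RPSA, known also as a laminin receptor, fell by 0.35 (SE 0.09), RPS3A by 0.28 (SE 0.08) and RPL22, which is deleted in some T-cell leukemias, by 0.21 (SE 0.06), and each of these 3 calls was lost without the second 1035 library (edgeR adjusted p = 0.0726, 0.0872 and 0.066). RPL38, whose loss in mice alters translation of Hox mRNAs, had 511 and 456 CPM in 1035+Doxo and 464 and 453 in 1035, against 398 and 411 in Doxo and 393 and 392 in DMSO. It rose by 0.22 (SE 0.06) in 1035 against DMSO and by 0.26 (SE 0.06) in 1035+Doxo against Doxo. RPL8 and RPL18 rose by 0.17 and 0.13 (SE 0.06 each) in 1035 against DMSO. The call of RPL8 was lost in 4 of 17 alternatives, among them those without either DMSO library (edgeR adjusted p = 0.0936 and 0.0944) or the second 1035 library (edgeR adjusted p = 0.13), and that of RPL18 (edgeR adjusted p = 0.0489) in 6. RPL3, RPL13A and RPL41 had log2 fold changes of -0.03 (SE 0.06), 0.01 (SE 0.06) and -0.04 (SE 0.11) and passed no test.

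**Figure D4:**
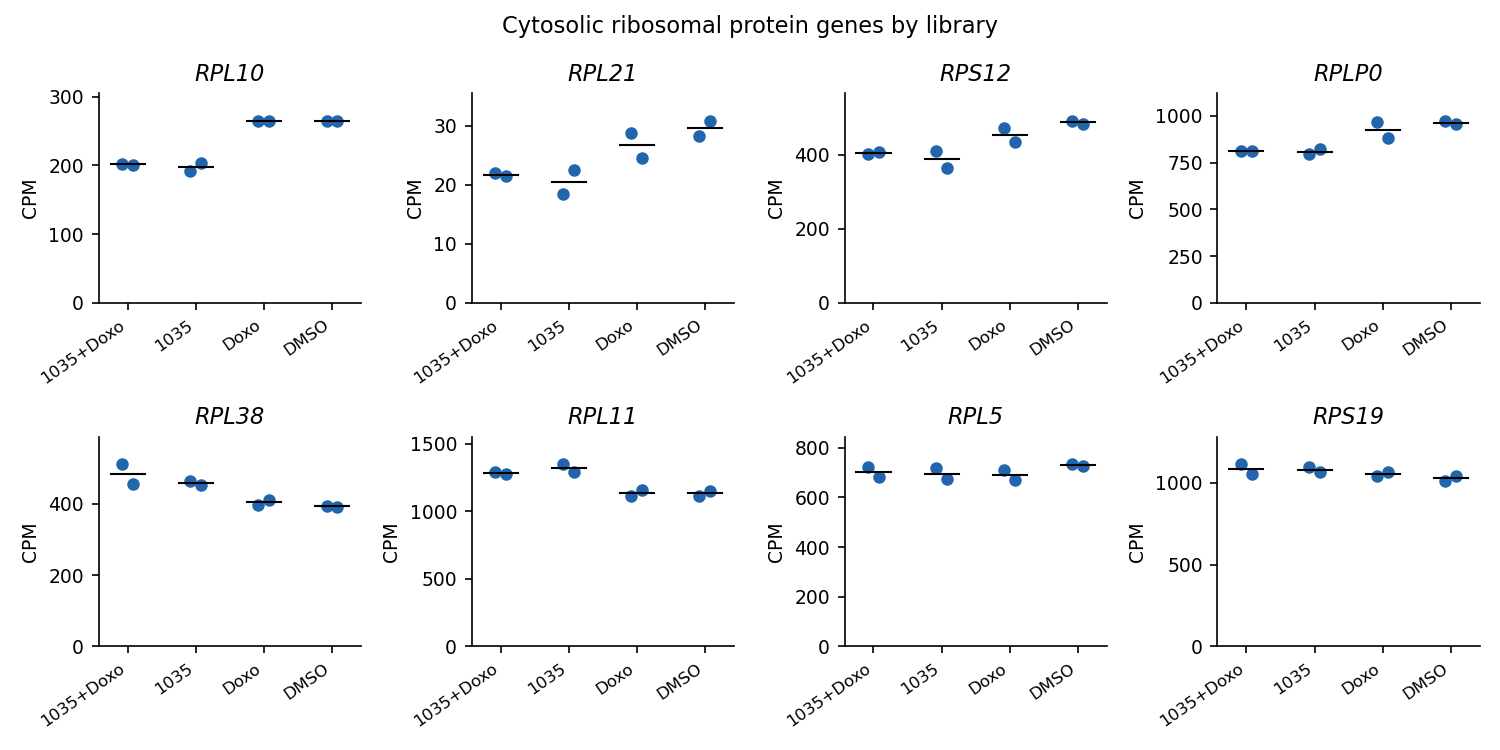
CPM (vertical axes, from 0) of 8 cytosolic ribosomal protein genes in the 2 libraries of each treatment; points are libraries and lines means. RPL10, RPL21, RPS12 and RPLP0 were lower and RPL38 and RPL11 higher in all 4 libraries with 1035, and RPL5 and RPS19 passed no test.

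With doxorubicin present in both groups, the mitochondrial genes were again lower with 1035. In 1035+Doxo against Doxo, 35 mitochondrial genes (44.9%) were lower and 3 (3.85%) higher with a median log2 fold change of -0.17, beside 22% of all genes lower and 21.8% higher with a median of 0.00. Of the cytosolic genes, 7 (9.21%) were lower and 8 (10.5%) higher, with a median of 0.00. Scaled by library totals, the counts became 29 and 8 mitochondrial and 4 and 17 cytosolic genes lower and higher, with medians of -0.12 and 0.05, beside 18.9% of all genes lower and 25% higher with a median of 0.05. Most cytosolic genes called lower lost their call without either 1035+Doxo library. Most genes of both sets called higher lost theirs without the first. Fewer genes were called over all genes too in each of these fits. Over the 8 omissions of 1 library, the median ranged from -0.0056 to 0.044 for cytosolic genes. For mitochondrial genes it ranged from -0.19 to -0.12. This comparison and 1035 against DMSO share no library, but both were taken from the same fit, with spread and scaling estimated over all 8 libraries. Called lower in both were 32 mitochondrial genes, 78% of the 41 and 91.4% of the 35, and 7 cytosolic genes, 35% of the 20 and 100% of the 7. Over all genes tested these shares were 77.4% and 87.2%. No member was called in opposite directions. The cytosolic genes higher in 1035+Doxo than in Doxo included RPL34, at 320.1 and 319 CPM in 1035+Doxo against 275 and 269 CPM in Doxo, as well as RPL27, RPL15 and RPL9, each of which lost its call without the first 1035+Doxo library (edgeR adjusted p = 0.0918, 0.212 and 0.154). Those lower included RPL6 and RPS9, at log2 fold changes of -0.20 and -0.17 (SE 0.06 each), which also lost their calls without that library (edgeR adjusted p = 0.143 and 0.0692).

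**Figure D5:**
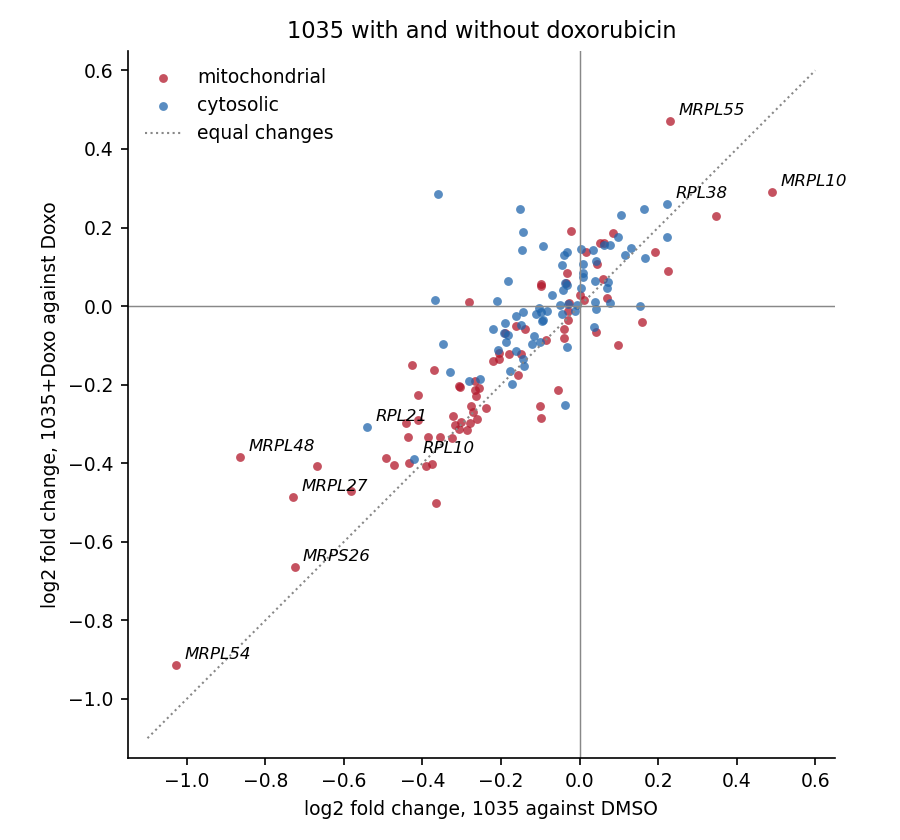
Log2 fold change of each member in 1035 against DMSO (horizontal) and in 1035+Doxo against Doxo (vertical); red points are mitochondrial, blue points cytosolic, and the dotted line marks equal changes. MRPL54 lies at -1.03 and -0.91, the lowest point on both axes, and MRPL10 at 0.49 and 0.29.

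The comparison of 1035+Doxo with DMSO shares libraries with each of the others, so its counts are no separate evidence. It had 40 mitochondrial genes (51.3%) lower and 3 (3.85%) higher with a median log2 fold change of -0.20, and 16 cytosolic genes (21.1%) lower and 4 (5.26%) higher with a median of -0.01. The background was 24.7% lower and 24.5% higher. Scaled by library totals, the counts became 32 and 7 mitochondrial and 6 and 14 cytosolic genes lower and higher, with medians of -0.12 and 0.07, beside 19.5% of all genes lower and 29.8% higher with a median of 0.09. Most cytosolic calls were lost without the first DMSO library. Fewer cytosolic genes were called lower without the second DMSO library or either 1035+Doxo library. Fewer genes were called over all genes too in each of these fits. Over the 8 omissions of 1 library, the cytosolic median ranged from -0.032 to 0.0052.

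No ribosomal protein gene passed the test with doxorubicin alone. In Doxo against DMSO, edgeR called 0 members, DESeq2 called 0, and the authors' deposited table also held 0 at an adjusted p under 0.05, with 0.137% of all its genes higher and 0.34% lower. At an unadjusted p under 0.05, edgeR had 8 of 78 mitochondrial and 3 of 76 cytosolic members, beside 2169 of all 16320 genes tested. Of all genes, 0.784% were higher and 0.545% lower, so few calls were made in this comparison at all. The medians were -0.06 for mitochondrial and -0.05 for cytosolic genes, with 55 of 78 and 60 of 76 below 0. Over all 16320 genes the median was -0.01, with 8403 below 0. The highest of the 10 CPM bins, which held 62 of the 76 cytosolic genes, had a median of -0.055. Genes outside both families within the CPM range of the mitochondrial set had a median of -0.015. Leaving out the first Doxo library gave 7 cytosolic and 3 mitochondrial genes lower, and 1180 in place of 217 calls over all genes. The smallest p was that of MRPL23, at 49.0 and 45.3 CPM in Doxo against 56.6 and 54.8 in DMSO, with an edgeR adjusted p of 0.132.

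In 1035+Doxo against 1035, edgeR and DESeq2 again called 0 members, beside 0.349% of all genes higher and 0.147% lower. The authors' deposited table held 0 members, with 0.128% of its genes higher and 0.0873% lower. Unadjusted edgeR p-values under 0.05 numbered 5 of 78 mitochondrial and 4 of 76 cytosolic members, beside 1110 of all 16320 genes tested. Of these members, RPLP1 was the nearest to the threshold (log2 fold change 0.27, SE 0.07, edgeR adjusted p = 0.0624). The test of whether the effect of 1035 differed with doxorubicin, the interaction, called 0 members by edgeR and by DESeq2. By edgeR, it called 0.0184% of all genes higher and 0% lower. Its unadjusted edgeR p was under 0.05 for 3 mitochondrial and 2 cytosolic genes, beside 786 of all 16320 genes tested. Without the first Doxo library, 3 cytosolic genes and 1 mitochondrial gene were called higher in the interaction and 239 genes in all. For MRPL48, whose change was smaller with doxorubicin than without, the interaction was 0.48 on the log2 scale (SE 0.13, edgeR adjusted p = 0.569).

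The authors' deposited table gave fewer mitochondrial calls, and fewer calls over all genes. At an adjusted p under 0.05, the authors' deposited table held 37 mitochondrial genes lower and 4 higher and 20 cytosolic genes lower and 6 higher in 1035 against DMSO, with 19.9% of all its genes lower and 17.5% higher. For 1035+Doxo against Doxo the authors' deposited table held 21 and 1 mitochondrial and 6 and 4 cytosolic genes lower and higher, with 13.7% of all its genes lower and 12.5% higher.

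Per length, the families stood far apart in level. The deposited FPKM (counts scaled by gene length and library reads) in DMSO had a median of 119 over the cytosolic genes, with the lowest value, 4.64, for RPS28, and a median of 17.8 over the mitochondrial genes, from 2.83 for MRPL46 to 72.8 for MRPS34. The gene lengths behind these values were 670 to 8164 bases. RPS28 had 9.88 and 10.6 CPM in 1035+Doxo and 6.91 and 9.02 in 1035, against 11.3 and 8.64 in Doxo and 11.7 and 8.66 in DMSO, with groups that overlapped.

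Genes that serve the ribosomes but lie outside both sets were examined as lists. Of 16 genes that the symbols miss, such as paralogs and mitochondrial ribosomal proteins under older names, 8 were lower and 1 higher in 1035 against DMSO (median log2 fold change -0.24), beside 24.8% of all genes lower and 24.2% higher. RPL22L1, the paralog of RPL22, fell by 0.65 on the log2 scale (SE 0.10), and AURKAIP1, a mitochondrial small subunit protein, by 0.49 (SE 0.08). OXA1L, which inserts proteins into the inner membrane beside the mitochondrial ribosome, rose by 0.36 (SE 0.06). RPS27L, a paralog of RPS27 and a known p53 target, had 66.6 and 55.6 CPM in 1035+Doxo and 38.2 and 37.2 in 1035, against 105 and 89.6 in Doxo and 64.5 and 75.3 in DMSO. It was higher in Doxo than in DMSO by 0.49 (SE 0.09, edgeR adjusted p = 0.0112), though not without the first DMSO library (edgeR adjusted p = 0.186), and lower in 1035 than in DMSO by 0.89 (SE 0.10, edgeR adjusted p = 6e-07).

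Of 22 assembly factors of the mitochondrial ribosome, 10 were lower and 1 higher in 1035 against DMSO, with a median log2 fold change of -0.14, beside 24.8% of all genes lower and 24.2% higher. MRM1, a methyltransferase of the large mitochondrial rRNA, had 9.58 and 9.92 CPM in 1035+Doxo and 10.3 and 11.9 in 1035, against 18.4 and 18.3 in Doxo and 20.4 and 20.0 in DMSO, and NSUN4, another rRNA methyltransferase, fell by 0.56 (SE 0.08). RBFA and FTSJ2 fell by 0.38 and 0.28 (SE 0.08 each). Of 18 mitochondrial translation factors, 7 were lower and 0 higher (median -0.10). These included the initiation factor MTIF2, at a log2 fold change of -0.52 (SE 0.07), the tRNA modification enzyme MTO1, at -0.41 (SE 0.07), the RNA stability factor SLIRP, at -0.40 (SE 0.09), and the elongation factor GFM1, at -0.29 (SE 0.08), whose call was lost without the second 1035 library. Of 19 aminoacyl-tRNA synthetases of mitochondria, 11 were lower and 2 higher (median -0.20), with WARS2 at -0.71 (SE 0.13), YARS2 at -0.49 (SE 0.09), MARS2 at -0.47 (SE 0.09) and GARS, which serves both compartments, at -0.30 (SE 0.06).

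On the cytosolic side, 11 of 15 chaperones and importers of ribosomal proteins were lower in 1035 against DMSO and 0 higher, with a median log2 fold change of -0.28. PRMT3, a methyltransferase of RPS2, had 45.4 and 43.3 CPM in 1035+Doxo and 46.9 and 42.8 in 1035, against 73.9 and 70.1 in Doxo and 69.2 and 72.3 in DMSO. PDCD2, a chaperone of RPS2, fell by 0.45 (SE 0.06), HEATR3, an importer of RPL5, by 0.49 (SE 0.08), and GRWD1, a chaperone of RPL3, by 0.38 (SE 0.07). The other TOP mRNAs were mixed, with 8 of 20 lower and 4 higher (median 0.00), beside 46.6% lower and 19.4% higher among the most abundant 10% of genes and 24.8% and 24.2% of all genes. VIM, EEF1B2, EEF1D and NPM1 fell by 0.37, 0.41, 0.30 and 0.27 (SE 0.06 to 0.07).

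Among 22 regulators of these genes, 13 were lower and 3 higher in 1035 against DMSO (median -0.26), beside 24.8% of all genes lower and 24.2% higher. GABPA, the DNA-binding subunit of the factor whose core CCGGAAG was searched above, had 30.5 and 28.1 CPM in 1035+Doxo and 32.0 and 32.2 in 1035, against 50.9 and 48.6 in Doxo and 56.4 and 61.4 in DMSO. The 1035 libraries lay below all others, and GABPA fell by 0.87 on the log2 scale (SE 0.08, edgeR adjusted p = 1.4e-11). Its part in the change of the mitochondrial genes was not tested. PPRC1, a coactivator of NRF1, fell by 0.53 (SE 0.07), EIF4EBP1, a repressor of cap-dependent translation under mTOR, fell by 0.63 (SE 0.08), and RPS6KB2, an S6 kinase, rose by 0.74 (SE 0.07). The lists had, in 1035+Doxo against Doxo, 7 of 16 genes outside the symbol rule lower and 3 higher, 5 of 22 assembly factors lower and 1 higher, 4 of 18 translation factors lower, 7 of 19 synthetases lower and 1 higher, 9 of 15 chaperones and importers lower, 6 of 20 TOP mRNAs lower and 4 higher, and 12 of 22 regulators lower and 3 higher, beside 22% of all genes lower and 21.8% higher.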

How the data were processed

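Total RNA of 8 libraries, 2 per treatment, was analysed. Per the labels' protocols, RNA was isolated with a Versagene kit, and stranded TruSeq libraries after Ribo-Zero Gold depletion were read as single reads of 50 bases. The submitters' processing notes name the hg19 build, Novoalign 2.08.01 and DESeq2 1.4.5. No source used here names the counter, its strandedness or the gene models. The authors deposited 4 tables with raw counts, FPKM, log2 fold changes and adjusted p-values. The deposited counts entered the tests. The deposited FPKM values are counts per gene length and library reads, and were used for levels per length. The deposited log2 fold changes and adjusted p-values are the authors' own, and only their calls were counted.

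Tables were joined by gene identifier: 16608 of 17849 genes had counts in all 8 libraries, and 1241 were left out. Counts held by 2 tables, 132880 in all, were equal. filterByExpr removed 288 genes. Counts were TMM-scaled and fitted by edgeR 4.0.16 (R 4.3.3, limma 3.58.1) with the robust quasi-likelihood model on 4 group means, and two-sided p-values were adjusted over all 16320 genes at an FDR of 0.05. The model was tested on simulated data. Standard errors were taken as the log2 fold change over the root of F. Replicates differed by 1.78 to 4.55 chi-square per degree of freedom, most in Doxo, and the design text calls them independent. Alternatives were other scalings, DESeq2 1.42.0, other count filters, only the libraries compared, a replicate block and each library left out.

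Members and lists were chosen with earlier results of these data known. Named were, per set and comparison, the 6 called members with the smallest p in each direction, members with a fixed role, the highest and lowest FPKM of each set, and up to 4 called genes per list. Repeated calls among them are given once, in the main comparisons. Promoter letters came from RefSeq. Of the genes that this rule names, 1 is not reported here.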

Additional observations from a re-analysis of the deposited data

How the results depend on the processing

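No named gene that was called changed sign under any alternative, but some medians near 0, which carry no test, changed sign, among them the cytosolic medians of 1035 against DMSO and 1035+Doxo against DMSO with library totals, and that of 1035+Doxo against 1035 without the second 1035 library. With libraries scaled by their totals alone, 1035 against DMSO had 12 cytosolic genes higher and 7 lower, with medians of 0.0089 (cytosolic) and -0.15 (mitochondrial); 1035+Doxo against Doxo had 17 and 4 cytosolic and 8 mitochondrial genes higher, with medians of 0.050 and -0.12; 1035+Doxo against DMSO had 14 cytosolic genes higher, 6 lower and 7 mitochondrial higher, with medians of 0.068 and -0.12; and the cytosolic median of Doxo against DMSO was -0.014. With a mean normalized count of at least 50, 1035 against DMSO had 9 cytosolic genes higher and 13 lower, with medians of -0.013 and -0.17; 1035+Doxo against Doxo had 15 cytosolic and 5 mitochondrial genes higher; and 1035+Doxo against DMSO had 10 cytosolic genes higher, 10 lower and 5 mitochondrial higher, with medians of 0.031 and -0.16. With only the libraries compared, calls over all genes were 134 in Doxo against DMSO and 151 in 1035+Doxo against 1035, and 3 cytosolic genes were higher in 1035+Doxo against 1035 and 7 in 1035+Doxo against DMSO. Without the second 1035 and second Doxo libraries together, an alternative chosen after seeing the data, cytosolic medians were -0.011 in 1035+Doxo against 1035 and 0.031 in the interaction, 7 cytosolic genes were higher in 1035+Doxo against DMSO, and the interaction held 6 genes.

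Leaving out each library in turn, cytosolic genes in 1035 against DMSO ranged from 2 to 6 higher and 7 to 24 lower (median -0.099 to -0.045) and mitochondrial genes from 2 to 5 higher. In 1035+Doxo against Doxo the ranges were 2 to 11 and 3 to 9 cytosolic genes higher and lower (median -0.0056 to 0.044) and 1 to 3 mitochondrial genes higher (median -0.19 to -0.12). In 1035+Doxo against DMSO they were 1 to 7 and 6 to 19 cytosolic genes, with a mitochondrial median of -0.24 to -0.18. Doxo against DMSO called 33 to 1180 genes in all, 0 to 7 cytosolic and 0 to 3 mitochondrial genes lower. In 1035+Doxo against 1035, 30 to 143 genes were called, and 0 to 2 cytosolic genes were higher (median -0.011 to 0.048). The interaction held 1 to 239 genes, 0 to 3 cytosolic (median 0.047 to 0.095) and 0 to 1 mitochondrial genes higher (median 0.024 to 0.088). The cause of these shifts was not tested, beyond fewer samples where a library was left out.

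With the replicate block, 2 cytosolic genes were lower in Doxo against DMSO, 1 was higher in 1035+Doxo against 1035, and the interaction held 16 genes, 1 of them cytosolic. Same-numbered libraries deviated from their group means with correlations of -0.09 to 0.07 over 12067 genes, so no pairing by number was seen over these genes together. Such correlations cannot exclude a pairing that affects only some genes. Depth and 2 libraries per group limit what can be called, and low members such as RPS27 and RPS28 were among those with the largest standard errors.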
